A study of Mus musculus with 12 samples.

Results

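Tissue inhibitors of metalloproteinases were followed in mouse ankle joints as a set of 5 genes, Timp1, Timp2, Timp3, Timp4 and Reck, named for their function. The set was chosen with earlier results of these data known. A member was taken as the array feature whose annotation gives its symbol alone, and each of the 5 had a single such feature, out of 21789 features with 1 symbol and 28853 in all. All 5 were among the features bright enough to be tested. The TIMP proteins are secreted and bind the active site of matrix metalloproteinases, the enzymes that degrade collagen and other joint matrix, and TIMP3 also inhibits ADAM and ADAMTS enzymes, among them the aggrecanases of cartilage. RECK is a membrane-anchored glycoprotein that restrains several metalloproteinases at the cell surface. In joints, the balance between these inhibitors and their target enzymes is thought to bear on cartilage and bone loss.

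RNA was measured on Affymetrix Mouse Gene 1.0 ST arrays in ankle joints of 12 mice, 1 array per mouse and 3 mice per group, and replicates are therefore separate animals. The tested mice were arthritic Mmp8-/- and arthritic Mmp8+/+ mice, which received 150 µl of K/BxN serum at days 0 and 2 and whose joints were taken at day 7, and their controls were Mmp8-/- and Mmp8+/+ mice without arthritis. All groups were C57BL/6 and labelled male. By the study's methods the Mmp8-/- line had been bred to C57BL/6 over 12 breedings, and mice were 6 to 8 weeks old at serum transfer. The line is a germline knockout, not limited to a cell type. Whole ankle was pulverized, so that a smaller number of cells of a type and less RNA per cell cannot be told apart. Values are log2 RMA signals, in which 1 unit is a doubling. A feature's level on this scale was not set against that of another.

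Mmp8, the targeted gene, read 4.64 to 5.54 on 5 of the Mmp8-/- arrays and 10.21 to 11.16 on the 6 Mmp8+/+ arrays. The array labelled Mmp8-/- control mouse 2 read 10.65, against its label. Xist, which is transcribed from the inactive X chromosome, read 10.92 on the array of Mmp8-/- control mouse 1 and 10.42 on that of Mmp8+/+ control mouse 1, against 4.66 to 5.41 on the other 10 arrays, while Eif2s3y of the Y chromosome read 4.16 and 4.02 on the same arrays and 7.94 to 9.27 on the others. All 3 arrays against their labels, called the doubted arrays, are controls. Calls of the 5 inhibitors that are lost without them are given with and without them. For gene lists, counts without them are given, and not the call of each gene. The median signal of an array lay between 6.74 and 6.82.

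The sequence around the gene start is shown for Timp1 and Timp4, which had the largest rise and fall of the set. It is also shown for Timp3 and Reck, the pair with the highest r of deviations within groups, though their rank measure did not pass. Windows hold 250 bases before and 50 after the RefSeq start in GRCm38.p6, at chrX:20869916-20870215 (plus strand), chr6:115252156-115252455 (minus strand), chr10:86300162-86300461 (plus strand) and chr4:43875280-43875579 (plus strand), and all 5 members had an entry. Capitals mark matches, on either strand, to an AP-1 variant (TGAGTAA), an Ets motif (AGGAAG) and a GC box (GGGCGG), motifs chosen after the sequences had been seen.
Timp1: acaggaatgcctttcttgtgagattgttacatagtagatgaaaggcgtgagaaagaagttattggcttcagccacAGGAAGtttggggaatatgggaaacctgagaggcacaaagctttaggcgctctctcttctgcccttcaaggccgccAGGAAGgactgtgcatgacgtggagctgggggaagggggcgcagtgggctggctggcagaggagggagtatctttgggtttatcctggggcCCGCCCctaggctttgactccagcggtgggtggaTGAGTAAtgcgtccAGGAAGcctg
Timp4: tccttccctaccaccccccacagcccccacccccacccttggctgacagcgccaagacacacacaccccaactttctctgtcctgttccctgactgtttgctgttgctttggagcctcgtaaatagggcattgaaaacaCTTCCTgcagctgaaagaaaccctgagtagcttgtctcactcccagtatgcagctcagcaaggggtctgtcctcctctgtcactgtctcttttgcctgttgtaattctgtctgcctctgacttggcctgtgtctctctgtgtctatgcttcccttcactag
Timp3: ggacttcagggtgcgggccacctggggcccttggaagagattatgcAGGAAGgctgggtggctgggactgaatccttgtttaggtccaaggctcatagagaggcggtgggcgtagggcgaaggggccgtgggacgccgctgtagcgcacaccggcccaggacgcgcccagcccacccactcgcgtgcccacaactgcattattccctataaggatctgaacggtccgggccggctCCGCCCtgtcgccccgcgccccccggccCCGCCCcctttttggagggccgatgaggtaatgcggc
Reck: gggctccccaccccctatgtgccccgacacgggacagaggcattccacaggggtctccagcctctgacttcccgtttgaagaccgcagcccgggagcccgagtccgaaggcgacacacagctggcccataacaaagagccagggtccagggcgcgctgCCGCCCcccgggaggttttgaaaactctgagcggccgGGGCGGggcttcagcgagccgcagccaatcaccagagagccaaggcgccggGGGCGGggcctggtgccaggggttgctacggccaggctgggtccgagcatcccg
The Timp1 window held the AP-1 variant at base 27 after the start and 3 Ets matches, and the other 4 windows, Timp2 at chr11:118355362-118355661 included, held no AP-1 variant. Over all 32851 RefSeq windows of the same length, 2.68% held the variant, 35.4% an Ets match and 35.7% a GC box. The AP-1 consensus TGANTCA was found in no member and in 7.81% of all windows, and the STAT motif TTCNNNGAA in no member and in 8.3%. Timp2, Timp3 and Reck windows were rich in G and C (68.7%, 67% and 69.3%), against 55% and 53.3% for Timp1 and Timp4 and a median of 52.7% for all windows. A match is a string of letters, and none was tested for binding.

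Timp1, the inducible member, was the only inhibitor that rose. Its log2 signal was 11.94, 11.86 and 12.15 in arthritic Mmp8-/- mice, against 8.87, 8.24 and 8.74 in Mmp8-/- control mice. It was 11.95, 11.82 and 11.83 in arthritic Mmp8+/+ mice, against 8.79, 8.42 and 8.53 in Mmp8+/+ control mice. Arthritic and control values did not overlap, and the 6 arthritic mice lay within 0.33 of each other. Timp1 was 10.3-fold higher in arthritic than in control Mmp8-/- mice (log2 difference 3.37 ± 0.18 SE, adjusted p = 5.16e-08, limma with Benjamini-Hochberg over all tested features). It was 9.77-fold higher in arthritic Mmp8+/+ mice (3.29 ± 0.18, adjusted p = 5.34e-08). Among all tested features this was the 7th largest rise in Mmp8-/- and the 9th in Mmp8+/+ mice. Timp1 lies on the X chromosome. On the 2 control arrays with Xist signal it read 8.87 and 8.79, the highest control value of each group, and without them the log2 difference was 3.50 in Mmp8-/- and 3.39 in Mmp8+/+ mice. Of all tested features, 8.05% rose in Mmp8-/- and 7.30% in Mmp8+/+ mice. Of 8 synovial fibroblast markers, 2 rose in each genotype, while 2 fell in Mmp8-/- and 0 in Mmp8+/+ mice. Of 8 macrophage markers, 1 rose and 1 fell in each genotype. Cartilage markers, also 8, had 2 higher and 3 lower in Mmp8-/- and 1 and 1 in Mmp8+/+ mice. The part of these cell types in the rise of Timp1 was not tested. Of 8 neutrophil markers, 3 rose and 0 fell in each genotype. Their mean signal ranged from 10.08 to 10.45 in arthritic and 9.03 to 10.02 in control Mmp8-/- mice, and from 10.52 to 10.61 in arthritic and 9.83 to 10.13 in control Mmp8+/+ mice, and their part in the rise of Timp1 was not tested.

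**Figure D1:**
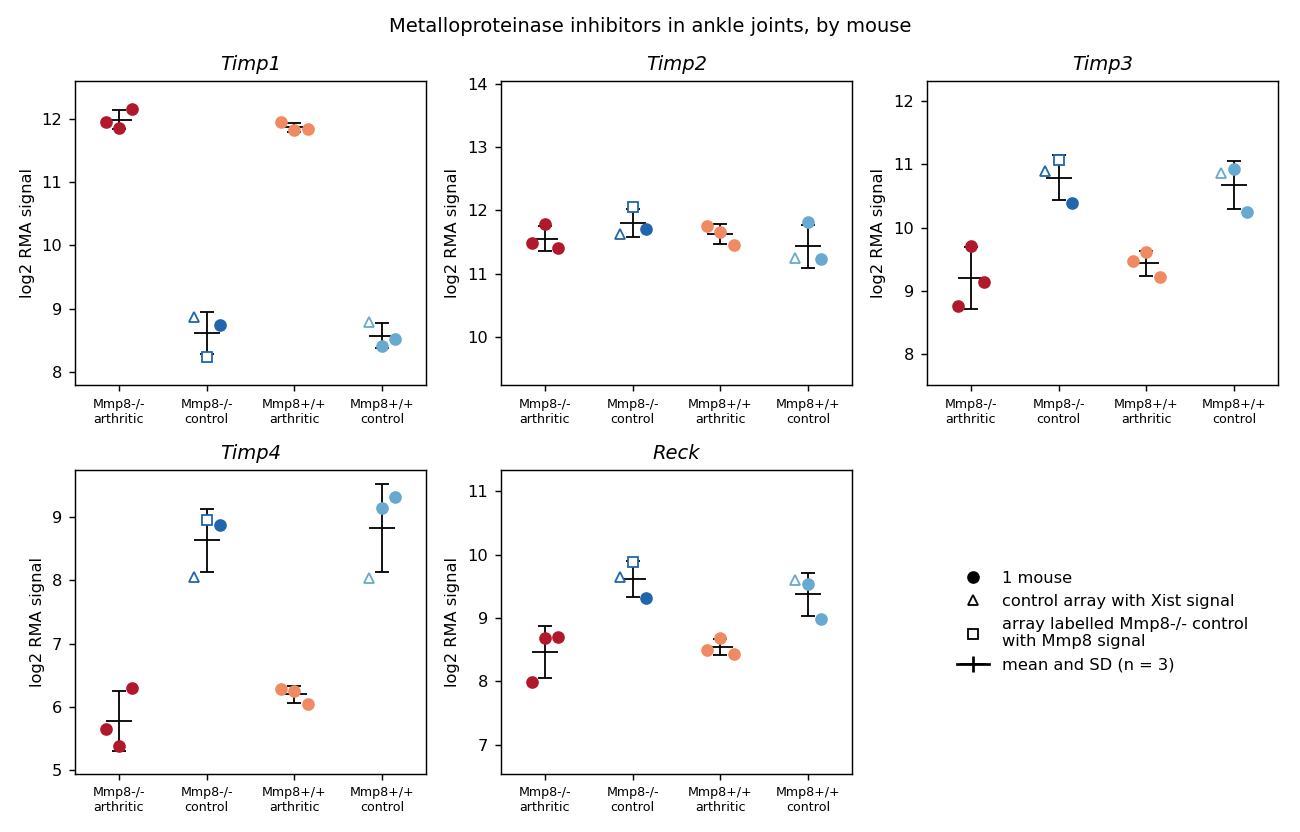
Log2 RMA signal (vertical axes, all of the same span but with different limits) of the 5 inhibitors in each of 12 mice. Filled circles are mice whose array fits the labels, open triangles control arrays with Xist signal and the open square Mmp8-/- control mouse 2, whose array had Mmp8 signal. Black bars are mean and SD of 3 mice. Timp1 lies above its controls, Timp3, Timp4 and Reck below theirs, and Timp2 values overlap.

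Timp4, the member with the narrowest known expression, in heart, muscle and fat, had the largest fall. Its log2 signal was 5.65, 5.38 and 6.30 in arthritic Mmp8-/- mice, against 8.06, 8.96 and 8.87 in Mmp8-/- control mice. It was 6.29, 6.26 and 6.05 in arthritic Mmp8+/+ mice, against 8.03, 9.14 and 9.31 in Mmp8+/+ control mice. The groups did not overlap, and control mice 1 of both genotypes, the arrays with Xist signal, were the lowest controls. Timp4 fell 7.23-fold in arthritic Mmp8-/- mice (log2 difference -2.85 ± 0.32 SE, adjusted p = 4.47e-05, limma) and 6.18-fold in arthritic Mmp8+/+ mice (-2.63 ± 0.32, adjusted p = 8e-05). These were the 26th and the 49th largest falls among all tested features. Without the arrays with Xist signal the log2 difference was -3.14 in Mmp8-/- and -3.03 in Mmp8+/+ mice. The deposited table gives no background measure, so how far the arthritic values of Timp4 lie above background is unknown.

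Fat and muscle markers fell in arthritic mice, as Timp4 did. Of all tested features, 13.5% fell in Mmp8-/- and 11.5% in Mmp8+/+ mice. Of 8 adipocyte markers, 7 had a feature and all 7 fell in arthritic mice of each genotype (median log2 difference -2.40 in Mmp8-/- and -2.21 in Mmp8+/+ mice). Their mean signal ranged from 7.28 to 7.99 in arthritic and 9.85 to 10.03 in control Mmp8-/- mice, and from 7.42 to 7.89 in arthritic and 9.18 to 10.20 in control Mmp8+/+ mice. Skeletal muscle markers had ranges of 9.19 to 10.52 in arthritic and 11.02 to 11.40 in control Mmp8-/- mice, and of 9.02 to 10.82 in arthritic and 11.06 to 12.10 in control Mmp8+/+ mice, with 4 of 8 and 8 of 8 lower. Within the control groups, mouse 1 of each genotype had the lowest Timp4 and the highest muscle mean (12.10 in Mmp8+/+, 11.40 in Mmp8-/-). Its adipocyte mean was the lowest of the Mmp8+/+ controls (9.18) but the highest of the Mmp8-/- controls (10.03). Osteoblast markers (median -1.45 in Mmp8-/- and -1.02 in Mmp8+/+ mice) and Schwann cell markers (-1.07 and -1.14) fell as well. The part of fat, muscle or other tissue RNA in the fall of Timp4 was not tested. The 3 genes whose profile over 12 mice was most like that of Timp4 were Acss2, an acetyl-CoA synthetase (r = 0.988), Cidec, a lipid droplet protein and one of the adipocyte markers (r = 0.982), and Aldh1a7, an aldehyde dehydrogenase (r = 0.980). These r are descriptions over mice of 4 groups and carry no p.

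**Figure D2:**
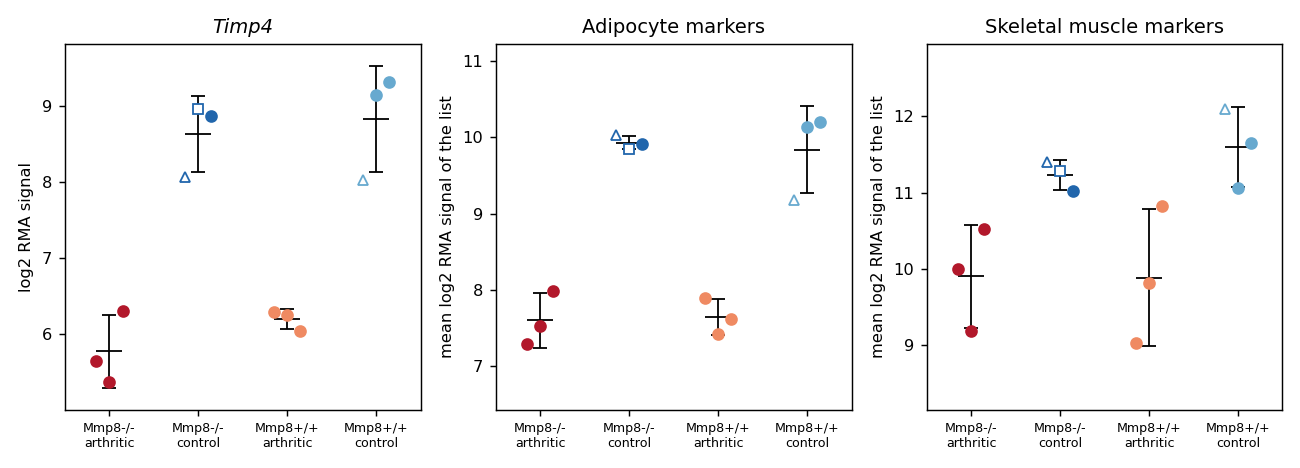
Timp4 log2 RMA signal and, beside it, the mean log2 RMA signal of 7 adipocyte and 8 skeletal muscle markers in each of 12 mice (symbols as in the plot of members by mouse, bars mean and SD of 3 mice). All 3 are lower in arthritic than in control mice, with no overlap within a genotype.

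Timp3, the matrix-bound inhibitor with the broadest range of targets, fell too. Its log2 signal was 8.75, 9.72 and 9.15 in arthritic Mmp8-/- mice, against 10.89, 11.07 and 10.39 in Mmp8-/- control mice. It was 9.47, 9.61 and 9.22 in arthritic Mmp8+/+ mice, against 10.86, 10.92 and 10.24 in Mmp8+/+ control mice. No arthritic value reached a control value. Timp3 was 2.99-fold lower in arthritic Mmp8-/- mice (log2 difference -1.58 ± 0.25 SE, adjusted p = 0.000763, limma) and 2.36-fold lower in arthritic Mmp8+/+ mice (-1.24 ± 0.25, adjusted p = 0.00387). Without all 3 doubted arrays, which leaves a single Mmp8-/- control mouse, the fall in Mmp8-/- mice did not pass (-1.19, adjusted p = 0.121).

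Reck, the cell-surface inhibitor, had the smallest fall of the members that passed. Its log2 signal was 7.99, 8.69 and 8.70 in arthritic Mmp8-/- mice, against 9.64, 9.88 and 9.31 in Mmp8-/- control mice. It was 8.49, 8.68 and 8.43 in arthritic Mmp8+/+ mice, against 9.59, 9.54 and 8.98 in Mmp8+/+ control mice. Arthritic values again lay below all control values, by a margin of 0.27 between the highest arthritic mouse and the lowest control. Reck fell 2.22-fold in arthritic Mmp8-/- mice (log2 difference -1.15 ± 0.22 SE, adjusted p = 0.00297, limma) and 1.78-fold in arthritic Mmp8+/+ mice (-0.84 ± 0.22, adjusted p = 0.0185). In Mmp8-/- mice the call was lost without all 3 doubted arrays (-0.85, adjusted p = 0.226). In Mmp8+/+ mice it was lost when Mmp8+/+ control mouse 1 (-0.72, adjusted p = 0.0819), control mouse 2 (-0.75, adjusted p = 0.07), arthritic mouse 1 (-0.82, adjusted p = 0.0604) or arthritic mouse 3 (-0.78, adjusted p = 0.0597) was left out. Markers of several cell types moved the same way as Timp3 and Reck. In each genotype 7 of 7 adipocyte, 4 of 6 osteoblast and 3 of 5 Schwann cell markers were lower. Of 8 skeletal muscle markers, 4 were lower in Mmp8-/- and 8 in Mmp8+/+ mice, and of 8 endothelial markers 2 and 1. The neutrophil, cartilage, synovial fibroblast and macrophage lists each held markers that rose. The part of any cell type was not tested. Of all tested features, 13.5% were lower in Mmp8-/- and 11.5% in Mmp8+/+ mice.

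Timp2, the most constitutive of the TIMPs and a partner of MMP14 in activating pro-MMP2, overlapped between groups. Its log2 signal was 11.48, 11.77 and 11.40 in arthritic Mmp8-/- mice, against 11.63, 12.05 and 11.71 in Mmp8-/- control mice. It was 11.75, 11.66 and 11.45 in arthritic Mmp8+/+ mice, against 11.24, 11.82 and 11.22 in Mmp8+/+ control mice. The difference did not pass in Mmp8-/- mice (-0.24, 95% interval -0.65 to 0.16, adjusted p = 0.358, limma) or in Mmp8+/+ mice (0.19, 95% interval -0.21 to 0.60, adjusted p = 0.493). As fold changes the intervals reach 0.636 and 1.12 in Mmp8-/- mice, and 0.862 and 1.52 in Mmp8+/+ mice. The log2 difference in Mmp8-/- mice was -0.12 without control mouse 2, whose array had Mmp8 signal, and that in Mmp8+/+ mice was 0.10 without the arrays with Xist signal.

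Of the 5 inhibitors, 4 passed in each genotype, 1 higher and 3 lower. In Mmp8-/- mice, 21.5% of all tested features passed, 8.05% higher and 13.5% lower. In Mmp8+/+ mice 18.8% passed, 7.30% higher and 11.5% lower. Averaged over genotypes, the same 4 of 5 passed where 41.9% of all features did, 19.8% higher and 22.1% lower. The median log2 difference of the 5 was -1.15 in Mmp8-/- and -0.84 in Mmp8+/+ mice, where that of all features was 0.01 and 0.02. For 4 members no arthritic value overlapped a control value over all 12 mice, as was so for 19.3% of features. An exact permutation test of arthritic against control labels within genotypes, two-sided, gave p = 0.005 for Timp1, Timp3, Timp4 and Reck, the smallest of 400 regroupings, and p = 0.865 for Timp2. Any feature without overlap reaches that smallest value, as the 19.3% of features named above would. For Timp1, Timp3, Timp4 and Reck the permutation test therefore adds nothing to the lack of overlap. Within 1 genotype 3 against 3 mice cannot give less than 0.1.

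**Figure D3:**
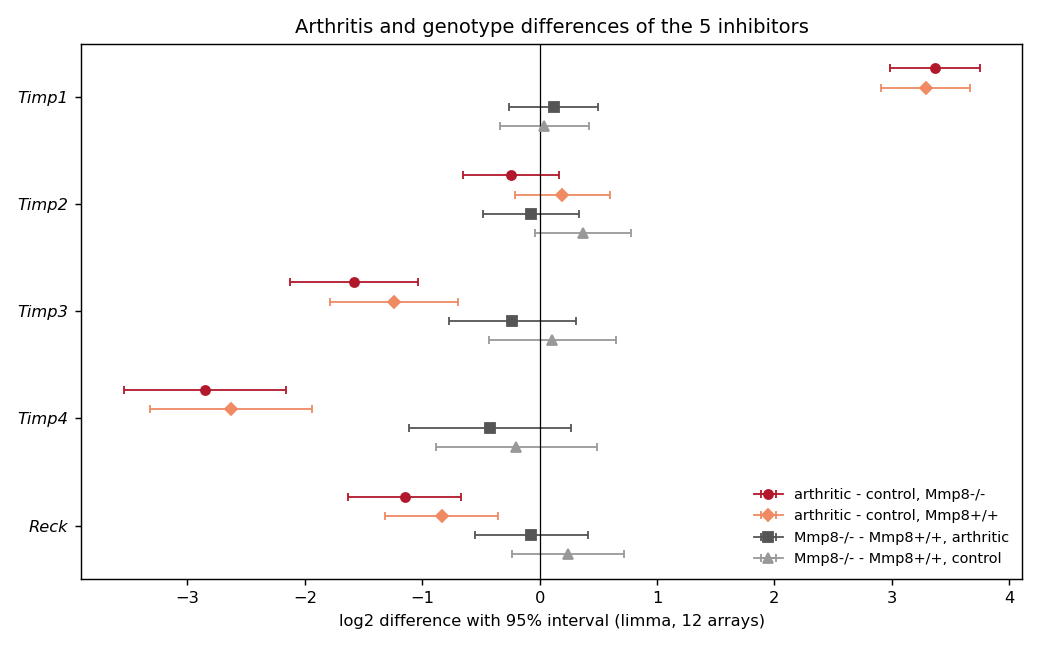
Log2 differences (horizontal axis) with 95% intervals from limma for the 5 inhibitors in 4 comparisons. Circles and diamonds are arthritic minus control in Mmp8-/- and Mmp8+/+ mice, squares and triangles Mmp8-/- minus Mmp8+/+ among arthritic and control mice. The arthritis intervals of Timp1, Timp3, Timp4 and Reck lie on 1 side of 0, and every genotype interval spans 0.

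The genotype comparisons asked whether lack of Mmp8 was accompanied by another inhibitor level. None of the 5 passed among arthritic mice, where 0.00541% of all features did, or among control mice, where 0% did (537 and 600 features had an unadjusted p under 0.05). The targeted gene Mmp8 did not pass either, among arthritic mice (log2 difference -5.54, adjusted p = 0.377, limma) or control mice (-4.01, adjusted p = 0.9998, limma). Yet Mmp8 read 4.64 to 5.54 in arthritic Mmp8-/- mice and 10.21 to 10.69 in arthritic Mmp8+/+ mice. The Mmp8-/- control group includes control mouse 2, whose array had Mmp8 signal. The fit takes 1 spread from all 4 groups, so that array also enters the SE among arthritic mice (1.03). A gene that did not pass was therefore not shown to be equal between genotypes. Among arthritic mice the log2 difference of Mmp8-/- minus Mmp8+/+ was 0.12 for Timp1 (95% interval -0.26 to 0.50), -0.07 for Timp2 (-0.48 to 0.34) and -0.23 for Timp3 (-0.78 to 0.31). For Timp4 it was -0.42 (-1.11 to 0.27), and 2 of the 3 arthritic Mmp8-/- mice lay below all arthritic Mmp8+/+ mice. For Reck it was -0.07 (-0.55 to 0.41). Each of these has an adjusted p of 0.9998 (limma). As a fold change, the interval of Timp4 runs from 0.463 to 1.20. The interaction of genotype and arthritis passed for 0 of 5 members and 0% of features (588 at an unadjusted p under 0.05), so that the larger falls of Timp3, Timp4 and Reck in Mmp8-/- mice were not shown to differ from those in Mmp8+/+ mice.

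The target enzymes of these inhibitors were described over lists. Of all tested features, 8.05% rose and 13.5% fell in Mmp8-/- mice, and 7.30% rose and 11.5% fell in Mmp8+/+ mice. Of 23 matrix metalloproteinases, 20 were tested, and 7 rose, 3 fell and 10 did not pass in Mmp8-/- mice, against 7, 1 and 12 in Mmp8+/+ mice. Mmp3 (stromelysin-1) rose most, by a log2 difference of 4.77 ± 0.23 in Mmp8-/- and 5.36 ± 0.23 in Mmp8+/+ mice. Mmp19 rose by 1.22 ± 0.20 in Mmp8-/- and 1.68 ± 0.20 in Mmp8+/+ mice. Mmp16, a membrane-type enzyme, fell, with differences of -0.95 ± 0.26 in Mmp8-/- and -0.85 ± 0.26 in Mmp8+/+ mice. Its call in Mmp8+/+ mice was lost without the 2 arrays with Xist signal. Mmp12 (macrophage elastase) passed only in Mmp8-/- mice (-1.62, against -0.03 in Mmp8+/+ mice, adjusted p = 0.933), and the interaction passed for none of the tested features. Of 26 tested ADAM and ADAMTS proteinases, 7 rose and 1 fell in Mmp8-/- mice and 9 rose and 0 fell in Mmp8+/+ mice. The fall was that of the aggrecanase-related Adamts15 (-0.63 in Mmp8-/- mice, adjusted p = 0.0278 by limma, and 0.01 in Mmp8+/+ mice). That call was lost without the 2 arrays with Xist signal, and also without the array with Mmp8 signal. Adam12 rose by 1.14 ± 0.20 in Mmp8-/- and 1.86 ± 0.20 in Mmp8+/+ mice, and Adam8 by 1.46 ± 0.14 in Mmp8-/- and 1.39 ± 0.14 in Mmp8+/+ mice.

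**Figure D4:**
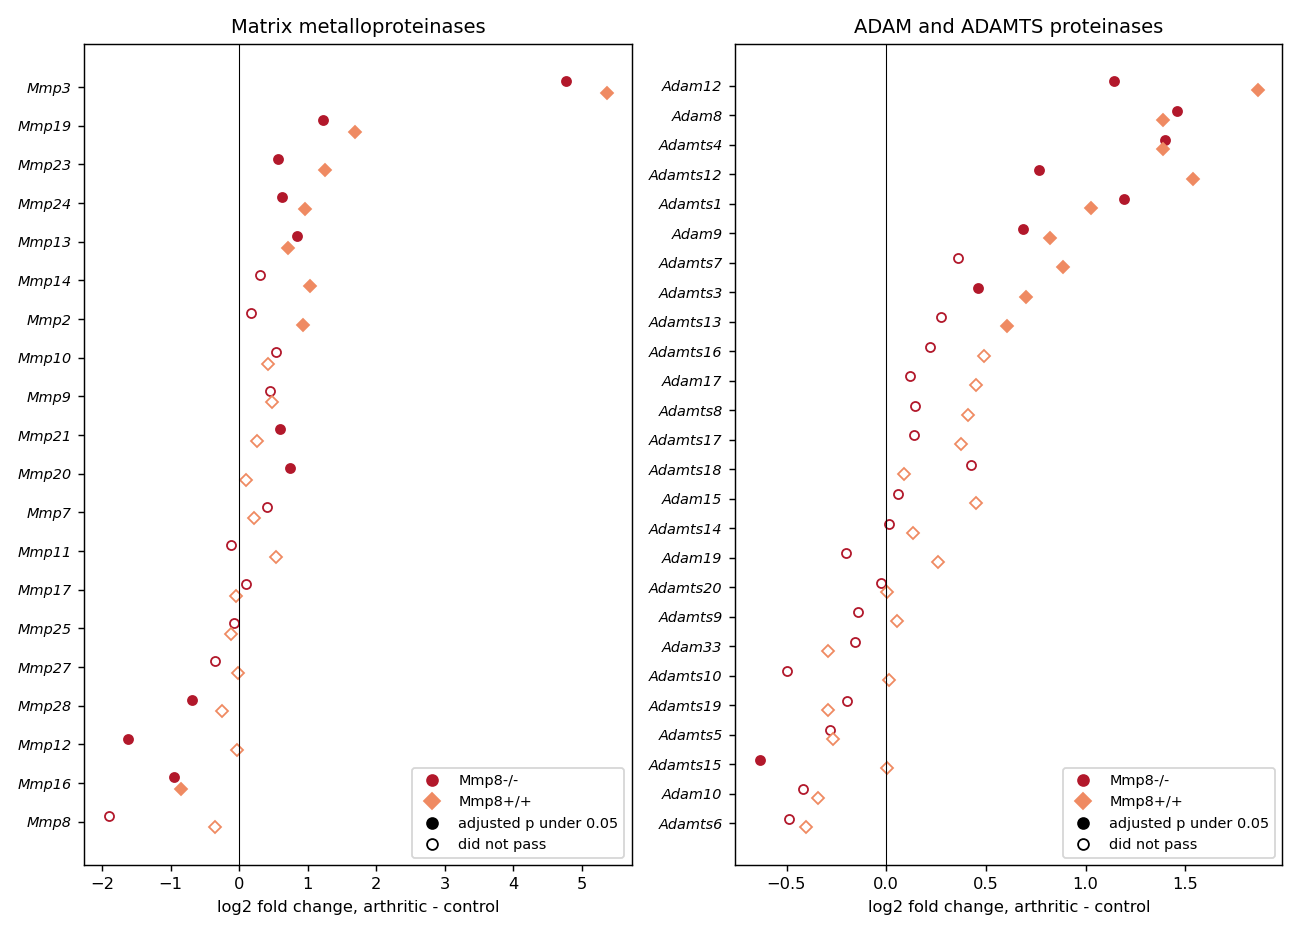
Log2 fold change of arthritic minus control mice (horizontal axis) for 20 matrix metalloproteinases and 26 ADAM and ADAMTS proteinases, circles Mmp8-/- and diamonds Mmp8+/+ mice, filled where the adjusted p is under 0.05. Mmp3 stands furthest to the right, at 4.77 and 5.36.

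Among 22 tested other inhibitors and netrin-domain proteins, 5 rose and 10 fell in Mmp8-/- mice and 8 rose and 9 fell in Mmp8+/+ mice. The Wnt antagonist Sfrp1 rose by 3.05 ± 0.20 in Mmp8-/- and 3.57 ± 0.20 in Mmp8+/+ mice, and Sfrp2 by 2.57 ± 0.18 in Mmp8-/- and 2.88 ± 0.18 in Mmp8+/+ mice. Frzb, of the same family, fell, with differences of -2.35 in Mmp8-/- and -2.21 in Mmp8+/+ mice. A2m, the plasma proteinase inhibitor alpha-2-macroglobulin, fell as well (-2.09 in Mmp8-/- and -2.26 in Mmp8+/+ mice). The list holds known inhibitors and proteins that share the netrin domain of TIMPs, so a shared direction is not implied by its name. Of 26 tested inducers of Timp1 and their signalling, 10 rose and 3 fell in Mmp8-/- mice and 11 rose and 2 fell in Mmp8+/+ mice. The cytokine Il6 rose by 3.43 ± 0.35 in Mmp8-/- and 2.92 ± 0.35 in Mmp8+/+ mice. Its control means, 3.81 in Mmp8-/- and 3.88 in Mmp8+/+ mice, lay below 4.93, the lowest mean of a tested feature. Il6 was therefore tested only through its arthritic values, and the size of its rise is uncertain. Il1b rose by 2.33 ± 0.18 in Mmp8-/- and 1.89 ± 0.18 in Mmp8+/+ mice. The receptor Lifr (-1.69 in Mmp8-/- and -1.58 in Mmp8+/+ mice) and the transcription factor Ets1 (-0.48 in Mmp8-/- and -0.66 in Mmp8+/+ mice) fell. Of 18 binding partners and receptors, 1 rose and 3 fell in Mmp8-/- mice and 3 rose and 4 fell in Mmp8+/+ mice. Of all tested features, 21.5% passed in Mmp8-/- and 18.8% in Mmp8+/+ mice. Cd63, a tetraspanin that binds TIMP1, rose by 1.17 ± 0.24 in Mmp8-/- and 1.05 ± 0.24 in Mmp8+/+ mice. Efemp1, a matrix protein that binds TIMP3, fell (-0.94 in Mmp8-/- and -0.99 in Mmp8+/+ mice), as did the integrin chain Itga6 (-1.14 in Mmp8-/- and -0.89 in Mmp8+/+ mice). Agtr2, an angiotensin receptor that binds TIMP3, passed in Mmp8+/+ mice, with differences of 0.57 in Mmp8-/- (adjusted p = 0.193) and 1.28 in Mmp8+/+ mice. Without all 3 doubted arrays, the counts in Mmp8-/- mice were 1 higher and 1 lower for matrix metalloproteinases, 3 and 0 for ADAM and ADAMTS enzymes, 3 and 2 for the other inhibitors, 4 and 1 for the inducers and 0 and 1 for the binding partners, where 2.55% of all features passed. In Mmp8+/+ mice they were 7 higher and 0 lower for matrix metalloproteinases, 8 and 0 for ADAM and ADAMTS enzymes, 7 and 9 for the other inhibitors, 6 and 2 for the inducers and 3 and 3 for the binding partners, where 9.23% passed.

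The genes most like Timp1 over the 12 mice were Ctps, a nucleotide synthesis enzyme (r = 0.993), the chemokine Ccl7 (r = 0.992) and the acute phase protein Saa3 (r = 0.989). Reck was most like Dennd5a (r = 0.992), Tmem100 (r = 0.991) and the natriuretic peptide receptor Npr2 (r = 0.986), and Dennd5a (r = 0.979) was also among the closest to Timp3, with Naaladl2 (r = 0.984) and Fam214a (r = 0.982). For Timp2 the closest were Adgrd1 (r = 0.945), Shisa5 (r = 0.911) and Ecm1 (r = 0.889), lower values than for the others.

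Within groups, the deviations of each mouse from its group mean were compared for the 10 pairs of inhibitors. Timp3 and Reck deviated together (r = 0.90, exact permutation p = 0.003086, adjusted over 10 pairs p = 0.0309). Spearman's rho was 0.83 (exact permutation p = 0.01003, adjusted p = 0.1003), so the rank measure did not pass. Leaving out the 2 mice farthest from the median of Timp3 gave r = 0.81, and r was not computed without the doubted arrays. How many other features deviate as closely with Timp3 or Reck was not counted, so the pair is not shown to be particular. Timp1 and Timp2 had r = -0.69 (exact permutation p = 0.0432, adjusted p = 0.216) and no other pair passed.

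**Figure D5:**
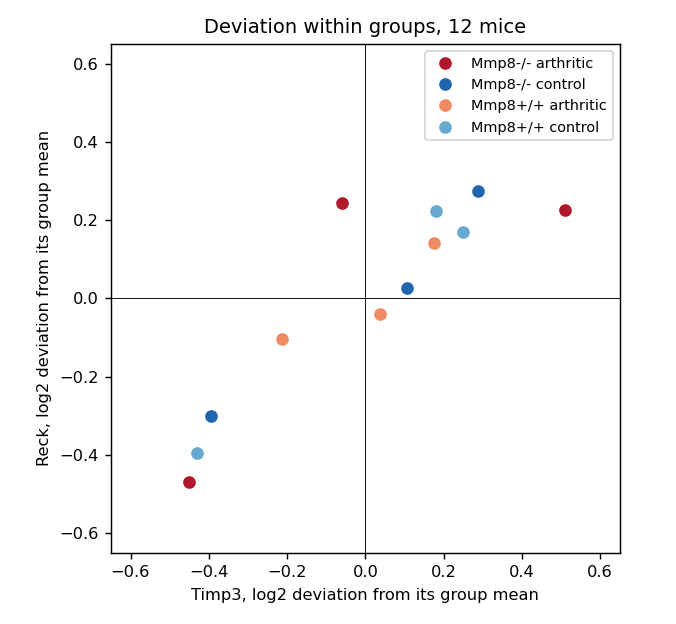
Log2 deviation from the group mean of Timp3 (horizontal axis) and Reck (vertical axis) in 12 mice, 3 of each group by colour. Most mice low in Timp3 were also low in Reck (r = 0.90). Arthritic Mmp8-/- mouse 3 was below its group mean in Timp3 and above it in Reck, and arthritic Mmp8+/+ mouse 1 was the reverse.

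Timp1, Timp3 and Timp4 lie wholly within the genes for the synaptic vesicle proteins Syn1, Syn3 and Syn2, and Timp2 overlaps Cep295nl, by the RefSeq gene spans. Within a single genotype 0 of the 3 synapsins passed between arthritic and control mice, while averaged over genotypes Syn1 (log2 difference 0.32, adjusted p = 0.0377, limma) and Syn3 (0.44, adjusted p = 0.0208) rose and Syn2 did not pass (-0.08, adjusted p = 0.616). In that averaged comparison 41.9% of all features passed. Syn1, the host of Timp1, ranged from 6.35 to 6.68 in arthritic and 5.98 to 6.23 in control Mmp8-/- mice. In Mmp8+/+ mice its values overlapped, with a lowest arthritic value of 6.05 and a highest control value of 6.16. Syn1 did not pass in Mmp8-/- mice (log2 difference 0.40, adjusted p = 0.087, limma) or in Mmp8+/+ mice (0.23, adjusted p = 0.324, limma). Syn3, the host of Timp3, ranged from 5.97 to 6.45 in arthritic and 5.56 to 5.67 in control Mmp8-/- mice, and from 5.91 to 6.57 in arthritic and 5.67 to 6.13 in control Mmp8+/+ mice. Syn3 did not pass in Mmp8-/- mice (log2 difference 0.51, adjusted p = 0.0713, limma) or in Mmp8+/+ mice (0.36, adjusted p = 0.203, limma). Syn2, the host of Timp4, ranged from 6.28 to 6.50 in arthritic and 6.49 to 6.56 in control Mmp8-/- mice, where Timp4 had a difference of -2.85. In Mmp8+/+ mice Syn2 ranged from 6.05 to 6.74 in arthritic and 6.15 to 6.56 in control mice.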

How the data were processed

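Total RNA of 12 ankle joints was hybridized to Affymetrix Mouse Gene 1.0 ST arrays, labelled from 300 ng. The authors deposited log2 RMA signals, for which RMA corrects background, quantile normalizes and summarizes the probes of a feature, and the submitters' processing notes name RMA and Partek. The study's filter on values below background cannot be repeated from the table, so the 18495 features with 1 gene symbol and the highest mean were tested (lowest mean 4.93). Of 28853 features, 21789 had 1 symbol, 1621 several and 5443 none, and 0 value columns were left out. Symbols come from the platform annotation, and RefSeq of GRCm38.p6 gave neighbouring genes and promoter sequences.

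The 4 groups were fitted with limma (version 3.58.1, R 4.3.3) over all 12 arrays, leaving 8 residual degrees of freedom, with Benjamini-Hochberg at 5%, two-sided. Errors are SE for differences. Single members were also tested by exact permutation of arthritis labels within genotypes. The number of arrays limits the precision. Alternatives were the compared arrays alone, ordinary regression, intensity trend with robust settings, array weights, no filter, every feature, mean subtraction, quantile normalization of tested features, and removal of arrays. The procedure was tested on simulated data. The members, gene lists and markers were chosen with earlier results of these data known. Named beside the 5 members are up to 4 passing genes of each list, at most 2 per direction, with the largest change averaged over genotypes, and the 3 genes most like each member. List counts without the doubted arrays, a test set that also held features with several symbols, deviations without the 2 farthest mice, and Timp2 control means without doubted arrays were added after seeing the data.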

Additional observations from a re-analysis of the deposited data

Results flagged for a closer look

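Timp2 was singled out because its arthritis differences ran in opposite directions in the 2 genotypes. All 3 arthritic Mmp8-/- mice lay below the mean of Mmp8-/- control mice (log2 difference -0.24), and all 3 arthritic Mmp8+/+ mice above the mean of Mmp8+/+ control mice (0.19). The difference between these differences was -0.44 (95% interval -1.02 to 0.14, unadjusted p = 0.126 and adjusted p = 0.9998 by limma), and did not pass. It was -0.31 without the array of Mmp8-/- control mouse 2, which had Mmp8 signal, -0.43 without the 2 arrays with Xist signal and -0.26 without all 3. Under the alternatives the difference stayed negative in Mmp8-/- mice (-0.36 to -0.12) and positive in Mmp8+/+ mice (0.09 to 0.39), and passed in none. The count of arthritic mice on 1 side of the control mean depended on the doubted arrays. Without Mmp8-/- control mouse 2, the mean of Mmp8-/- control mice was 11.67 and 1 of 3 arthritic Mmp8-/- mice lay above it. Without the arrays with Xist signal, the mean of Mmp8+/+ control mice was 11.52 and 1 of 3 arthritic Mmp8+/+ mice lay below it.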

How the results depend on the processing

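Over 710 values of single inhibitors under the alternatives, 676 kept their direction and side of the threshold, 9 lost their call and 25 changed sign, of which 0 passed under either setting. Those 9 were Timp3 and Reck in Mmp8-/- mice without all 3 doubted arrays, and Reck in Mmp8+/+ mice under 7 settings, among them ordinary regression (-0.84, adjusted p = 0.0644), removal of the arrays with Xist signal (-0.72, adjusted p = 0.102) and removal of all 3 doubted arrays (-0.72, adjusted p = 0.0998). The inhibitors called in Mmp8-/- mice numbered 2 in place of 4 without all 3 doubted arrays. With each array left out in turn they numbered 4 in Mmp8-/- mice, 3 to 4 in Mmp8+/+ mice and 4 averaged over genotypes, and 0 in every genotype comparison and the interaction. The share of all features called in Mmp8-/- mice ranged from 2.55% to 22.2% and in Mmp8+/+ mice from 9.23% to 26.2%, and averaged over genotypes from 14.5% to 43.0%. Without the arrays with Xist signal it was 9.20% and 10.4%, and without the array with Mmp8 signal 12.8% and 17.2%, in Mmp8-/- and Mmp8+/+ mice. The removal of all 3 arrays leaves fewer control mice. Timp1 and Timp4 kept their calls in both genotypes under every alternative, with adjusted p up to 0.000209 and 0.00673. A second feature per gene could not be tried, since each member has 1. Signs changed with array weights for Reck among arthritic mice (0.065) and Timp1 among control mice (-0.019). Without the array with Mmp8 signal they changed for Timp2 averaged over genotypes (0.0395), Timp3 among control mice (-0.035) and the interaction of Timp1 (-0.11), and without all 3 doubted arrays for Timp3 among control mice (-0.19) and the interaction of Timp1 (-0.14). With each array left out in turn, the ranges that crossed 0 were -0.081 to 0.073 for Timp2 averaged over genotypes, -0.11 to 0.21 and -0.51 to 0.17 for the interactions of Timp1 and Timp4, -0.18 to 0.0047 and -0.19 to 0.16 for Timp2 and Reck among arthritic mice, and -0.089 to 0.23, -0.11 to 0.31 and -0.60 to 0.087 for Timp1, Timp3 and Timp4 among control mice. Array signal over background could not be assessed. No paired analysis was possible because the labels give no replicate numbers shared between groups.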
